A study of Mus musculus with 48 samples.

Results

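The interferon response was examined as a set of 38 named genes in the stroma of mouse lymph nodes carrying a B cell lymphoma. The members were listed by symbol, with earlier results of these data known, and 37 of the 38 had a probe that was named for them alone on the bead arrays. Of these, 34 had a group mean above the background level and were tested, among 13119 genes tested in all. *Ifi44* had no probe of its own. *Ifit1* (highest group mean 4.98), *Xaf1* (5.34) and *Iigp1* (5.61) stayed below the background level of 5.62 in all group means, and *Ifih1* was the member just inside it, passing through BECs alone, with a mean of 5.65 in naive BECs. All levels are log2 values of quantile-normalized array intensity, in which a difference of 1 is a doubling.

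The arrays compared naive C57BL/6N mice with mice that had received 200000 to 400000 Eμ-*Myc* lymphoma cells intravenously, in which *Myc* is driven by the Eμ enhancer in B cells. Mice were of both sexes and 8 to 12 weeks old, and tumor cells made up 4% to 10% of lymphocytes. Stromal cells of pooled skin-draining lymph nodes were depleted of CD45+ cells and sorted, without CD45+, Ter119+ or dead cells, into fibroblastic reticular cells (FRC, CD31-gp38+), blood endothelial cells (BEC, CD31+gp38-), lymphatic endothelial cells (LEC, CD31+gp38+) and double-negative cells (DN, CD31-gp38-). Each of the 8 groups had 3 replicates, each a pool of 80 ng of RNA from 4 to 6 sorts hybridized to 2 strips that were averaged. DN is defined by the lack of both proteins and can hold several cell types. The labels call them biological replicates but do not tie them to separate animals, so p-values measure the spread between these pools.

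The sorted fractions carried their markers. Naive group means of *Pecam1*, which encodes CD31, were 14.60 in BECs and 13.62 in LECs against 7.31 in FRCs and 7.50 in DN cells, and *Prox1*, the transcription factor of lymphatic identity, was at 13.27 in LECs against at most 8.86 elsewhere. *Pdpn*, which encodes gp38, was at 14.41 in FRCs and 14.20 in LECs, and it was also at 11.25 in DN cells, which were sorted as gp38-. Among the DN arrays, naive replicate 2 stood apart by its lymphatic endothelial markers, and tumor replicates 1 and 2 by their leukocyte and B cell markers. Counts in DN cells are given with and without them. The arrays of each cell type shared 1 slide, so cell type and slide cannot be told apart. On each slide the naive and the tumor replicates held separate positions, so tumor state and position cannot be told apart either.

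Interferons are secreted proteins that warn cells of infection and that also shape antitumor immunity. Type I interferons act through the receptor subunits IFNAR1 and IFNAR2 and on genes that carry the interferon-stimulated response element (ISRE), to which STAT2 and IRF9 are recruited, whereas interferon gamma acts through its own receptor and on genes that carry the gamma-activated site (GAS). The genes switched on in this way encode sensors of foreign nucleic acid, antiviral enzymes, the ubiquitin-like modifier ISG15, membrane restriction factors and GTPases that attack vacuoles of pathogens.

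Promoters of the members were searched for both elements because they are the sequences through which the pathway acts. RefSeq promoters of build GRCm38.p6, each from 250 bases before to 50 bases after a gene's start, were at hand for 28 of the 38 members. The core of the ISRE, GAAANNGAAA on either strand, stood in the promoters of 13 of these 28 genes (46.4%) and of 1079 of all 27025 genes (3.99%). The GAS letters TTCNNNGAA stood in 8 of the 28 (28.6%) and in 9.55% of all genes. These are matches of letters, described without a test. The promoters of the members called in a cell type that hold the ISRE core, and of the pair whose response to tumor differed between cell types, are given here 5′ to 3′ on the strand of the gene, with the ISRE core in capitals. *Isg15* lies at chr4:156200769-156201068 (minus strand), *Ifit3* at chr19:34583279-34583578 (plus), *Igtp* at chr11:58199306-58199605 (plus), *Cmpk2* at chr12:26468965-26469264 (plus) and *Ifi35* at chr11:101448162-101448461 (plus).
Isg15: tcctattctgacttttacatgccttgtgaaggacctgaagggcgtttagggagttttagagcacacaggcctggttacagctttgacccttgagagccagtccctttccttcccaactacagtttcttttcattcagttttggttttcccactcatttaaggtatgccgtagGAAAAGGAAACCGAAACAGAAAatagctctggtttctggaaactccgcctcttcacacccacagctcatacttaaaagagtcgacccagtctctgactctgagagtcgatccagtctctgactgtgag
Ifit3: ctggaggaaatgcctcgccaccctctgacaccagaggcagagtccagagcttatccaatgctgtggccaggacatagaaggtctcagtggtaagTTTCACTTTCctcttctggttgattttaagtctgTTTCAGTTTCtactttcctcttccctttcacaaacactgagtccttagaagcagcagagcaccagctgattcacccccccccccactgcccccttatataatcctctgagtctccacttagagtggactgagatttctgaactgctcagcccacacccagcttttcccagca
Igtp: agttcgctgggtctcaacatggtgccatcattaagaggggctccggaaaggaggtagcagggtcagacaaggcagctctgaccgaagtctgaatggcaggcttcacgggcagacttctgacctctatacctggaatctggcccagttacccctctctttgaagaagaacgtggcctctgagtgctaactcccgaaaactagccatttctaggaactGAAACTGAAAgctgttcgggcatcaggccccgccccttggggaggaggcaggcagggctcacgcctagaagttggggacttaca
Cmpk2: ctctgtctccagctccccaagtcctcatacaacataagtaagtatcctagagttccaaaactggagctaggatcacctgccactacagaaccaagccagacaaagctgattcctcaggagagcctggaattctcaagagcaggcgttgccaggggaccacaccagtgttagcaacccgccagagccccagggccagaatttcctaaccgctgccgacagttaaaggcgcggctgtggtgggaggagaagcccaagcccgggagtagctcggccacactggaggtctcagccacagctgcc
Ifi35: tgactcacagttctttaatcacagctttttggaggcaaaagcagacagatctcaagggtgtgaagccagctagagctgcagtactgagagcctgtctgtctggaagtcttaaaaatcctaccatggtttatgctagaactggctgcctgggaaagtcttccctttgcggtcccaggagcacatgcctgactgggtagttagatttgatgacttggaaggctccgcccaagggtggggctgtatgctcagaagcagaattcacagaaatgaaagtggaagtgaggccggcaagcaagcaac
The *Isg15* promoter held 3 overlapping copies of the core, the first starting at position -78 and the last at -66 from the start, *Ifit3* held 2 copies and *Igtp* held 1 copy together with 1 GAS. *Cmpk2* held neither set of letters in this window, and *Ifi35* held 1 GAS and no ISRE core.

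Before tumor, the members were highest in blood endothelium and lowest in DN cells. The median of the 34 members was 11.95 in naive BECs, 11.30 in LECs, 10.73 in FRCs and 10.13 in DN cells. Per replicate, the median of 9 housekeeping genes was 12.97 to 13.23 in naive BECs and 12.85 in LECs. It was 12.17 to 12.58 in naive FRCs and 12.01 to 12.67 in naive DN cells. The part of this housekeeping order in the member levels was not tested. BECs had the highest naive mean for 28 members and LECs for the other 6, and DN cells had the lowest mean for 27. *Ifih1* is among the 28 and *Mx1* among the 6. Each passed the filter through that cell type alone, so the filter fixed its place. The question was whether the resting level of the response differs between stromal cell types. The moderated F test of limma over the 4 naive groups passed for 32 of 34 members, against 69.1% of all genes, with *Zbp1* and *Usp18* the exceptions.

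**Figure D1:**
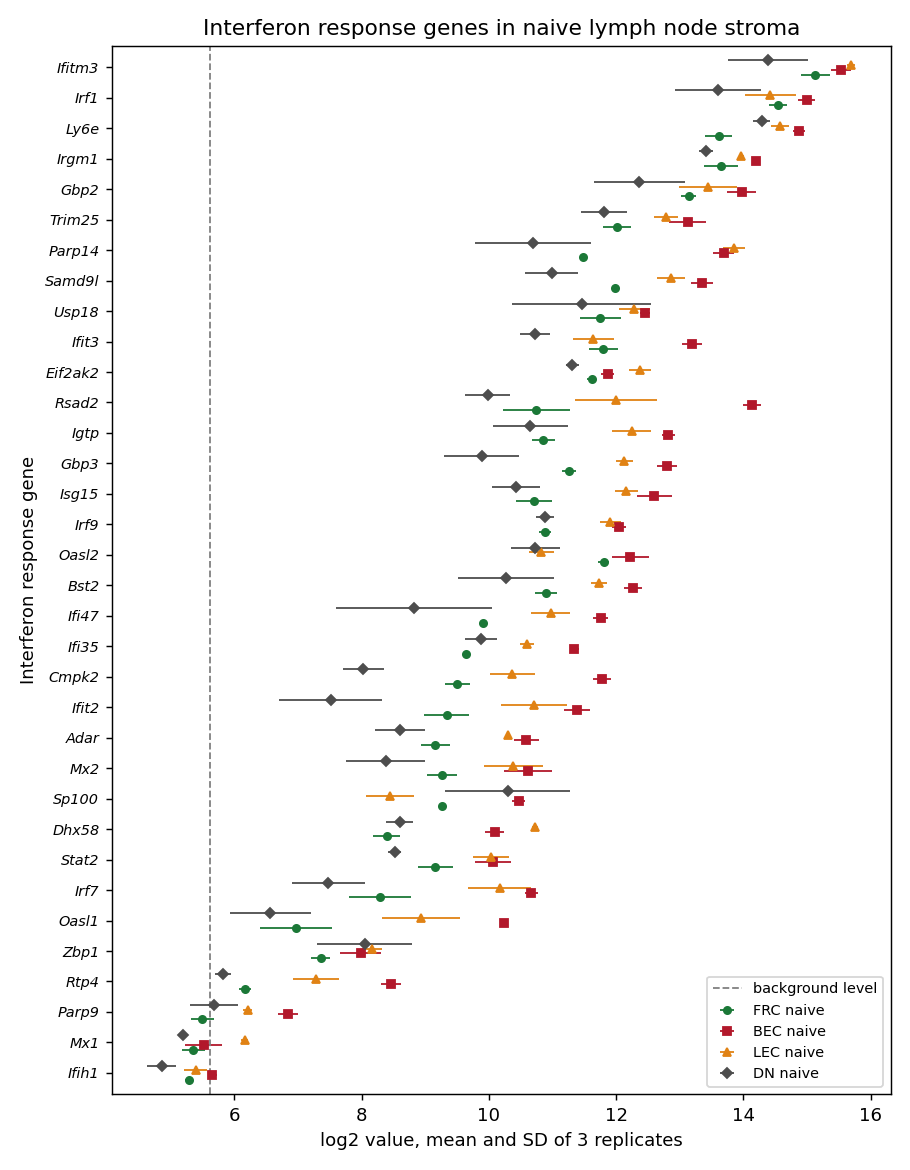
Log2 value (x axis) of the 34 tested interferon response genes (y axis, ordered by mean naive level) in naive FRC, BEC, LEC and DN cells, as mean and SD of 3 replicates, with the background level as a dashed line. BEC squares lie farthest right for 28 genes and DN diamonds farthest left for 27. Levels of different genes come from different probes and are not compared.

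In pairs of naive cell types, the order was BEC, LEC, FRC and DN. FRCs were below BECs in all 34 members, and 26 passed (20.6% of all genes were called lower). *Ifih1*, which passed the filter through BECs alone, is counted among the 34. FRCs were lower than LECs in 24 members (17.8%) and higher than DN cells in 15 (18.7%). BECs were higher than LECs in 9 members (10.2%) and lower in 3 (12.1%), *Mx1*, *Dhx58* and *Eif2ak2*, so the neighbouring endothelial levels often did not differ beyond their spread. *Mx1* passed the filter through LECs alone, so the direction of its difference was set by the filter. BECs exceeded DN cells in 31 members (25.0%) and LECs exceeded DN cells in 28 (22.5%). Without DN naive replicate 2, the members called higher than in DN cells were 20 for FRCs, 31 for BECs and 30 for LECs. The share of all genes called was not worked out for this fit or for any below that left a replicate out.

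*Rsad2*, which encodes the antiviral enzyme viperin, spanned the widest range and was singled out after its values were seen. It stood at 14.14 ± 0.14 (SD, n = 3) in naive BECs, 11.996 ± 0.65 in LECs, 10.74 ± 0.53 in FRCs and 9.98 ± 0.35 in DN cells. BECs thus exceeded DN cells by 4.16 on the log2 scale (standard error 0.30). *Sp100*, a nuclear body protein, departed from the common order. It was lowest in LECs and higher in DN cells than in LECs by 1.86 (limma adjusted p = 0.0002 for the LEC minus DN difference of -1.86). Its naive DN replicates were spread, at 10.82, 9.16 and 10.91.

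The brightest member probes were well above background in every group. *Ifitm3*, which blocks entry of viruses at endosomes, was at 15.69 ± 0.07 (SD, n = 3) in naive LECs, 15.54 ± 0.16 in BECs, 15.13 ± 0.23 in FRCs and 14.39 ± 0.63 in DN cells. *Irf1*, a transcription factor induced by interferon gamma, was at 14.99 ± 0.14 in naive BECs, 14.55 ± 0.14 in FRCs, 14.42 ± 0.40 in LECs and 13.60 ± 0.68 in DN cells. *Ly6e*, a membrane protein that restricts viral fusion, was at 14.87 ± 0.09 in BECs, 14.57 ± 0.14 in LECs, 14.28 ± 0.13 in DN cells and 13.61 ± 0.21 in FRCs, so that here FRCs and not DN cells were lowest. The dimmest probes with a mean naive level above background were those of *Parp9*, *Rtp4* and *Zbp1*. *Parp9*, an ADP-ribosyltransferase family member, was above background in all replicates of naive BECs (6.85 ± 0.15) and LECs (6.21 ± 0.07) but in only 1 of 3 FRC replicates (5.49 ± 0.18) and 2 of 3 DN replicates (5.67 ± 0.38). *Rtp4*, an inducible receptor transport protein, was at 8.46 ± 0.16 in BECs, 7.28 ± 0.36 in LECs, 6.17 ± 0.09 in FRCs and 5.82 ± 0.12 in DN cells. *Zbp1*, a sensor of Z-form nucleic acid, stayed between 7.36 ± 0.15 in FRCs and 8.17 ± 0.15 in LECs. *Mx1*, of which many laboratory strains carry a defective copy, lay above background in all naive replicates only in LECs (6.16 ± 0.06).

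Tumor changed few members in any single cell type, and the direction differed between fractions. With tumor, 3 members were called higher in FRCs, 1 lower in BECs, none in LECs and 7 higher in DN cells. All 3 members called in FRCs, *Isg15*, *Ifit3* and *Dhx58*, were among the 7 called in DN cells. The median log2 change over the 34 members was 0.13 in FRCs, -0.30 in BECs, 0.05 in LECs and 0.52 in DN cells, where the median of all genes tested was -0.03, -0.04, -0.002 and -0.07.

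**Figure D2:**
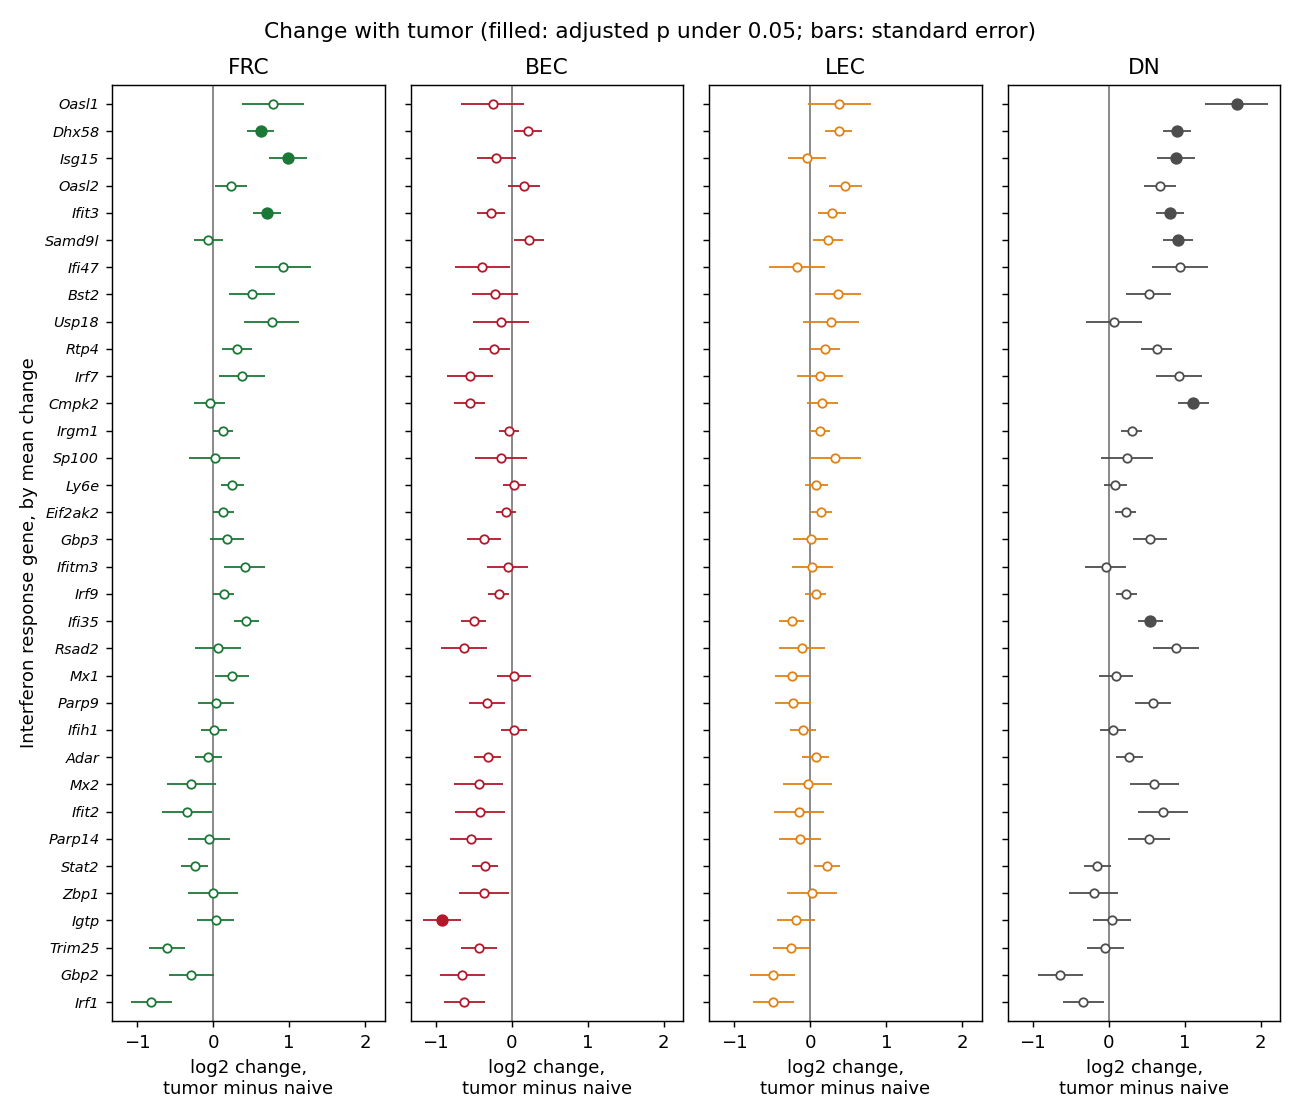
Log2 change from naive to tumor (x axis) with its standard error for each of the 34 interferon response genes (y axis, ordered by the mean change over the 4 cell types) in FRC, BEC, LEC and DN. Filled points passed an adjusted p of 0.05. Points lie below 0 for 28 genes in BEC and above 0 for 28 genes in DN.

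In FRCs, 3 of 34 members rose (8.82%, against 6.40% of all genes) and none fell (4.12% of all genes). *Isg15*, the ubiquitin-like modifier that is conjugated to proteins of infected cells, was at 10.52, 10.56 and 11.04 in the naive replicates and at 11.91, 11.82 and 11.35 in the tumor replicates. Every tumor value lay above every naive value, and the log2 change was 0.99 (standard error 0.25, limma adjusted p = 0.018). *Ifit3*, whose protein binds viral RNA together with other IFIT proteins, was at 11.59, 11.76 and 12.04 in naive and 12.64, 12.36 and 12.51 in tumor FRCs. The groups did not overlap, and the change was 0.71 (standard error 0.18, adjusted p = 0.018). Its probe cannot be assigned with certainty, because *Ifit3b* is a near-identical neighbour. *Dhx58*, which encodes the RNA sensor LGP2, was at 8.25, 8.30 and 8.64 in naive and 9.07, 9.13 and 8.87 in tumor FRCs. The groups were again separate, with a change of 0.63 (standard error 0.18, adjusted p = 0.032).

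Tumor values lay above all naive values for 10 members in FRCs (29.4%, against 19.5% of all genes), among them *Usp18*, which trims ISG15 from proteins and dampens the interferon receptor, *Bst2*, *Ifitm3*, *Ifi35*, *Ifi47*, *Rtp4* and *Eif2ak2*. *Irf1* and *Trim25* lay below all naive values (5.88% of members, against 20% of all genes). Leaving out FRC naive replicate 1, FRC naive replicate 2 or FRC tumor replicate 1 left no member called in FRCs, leaving out FRC tumor replicate 2 left 1, and leaving out DN naive replicate 2, which enters through the shared spread, gave 5. In the same FRC arrays 2 of 14 myeloid markers, 3 of 10 pericyte and smooth muscle markers (median log2 change 0.62) and 4 of 9 housekeeping genes (0.51) were called higher. None of 10 leukocyte markers (0.79) or 9 B cell markers (0.50) was called. Their signal was also summed, as the log2 of the sum of unlogged values, each less the background mode. For the leukocyte markers it nevertheless ran from 10.98 to 11.76 in naive and from 12.32 to 13.63 in tumor replicates. The part of these shifts in the member changes was not tested.

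Among 14 tested genes of sensing and induction, 2 rose in FRCs. *Sting1*, the adaptor of cytosolic DNA sensing, rose by 1.76 on the log2 scale (standard error 0.28, adjusted p = 0.0007), from 8.88, 8.98 and 8.98 to 10.80, 11.02 and 10.31, and *Cgas*, its DNA sensor, rose by 0.95 (standard error 0.28, adjusted p = 0.037). Among 37 further interferon-stimulated genes, *Slfn2* rose by 1.21 (standard error 0.26, adjusted p = 0.0056) and *Oas1g*, an oligoadenylate synthetase, rose by 0.90 (standard error 0.22, adjusted p = 0.014). *Tyk2*, a kinase of the type I interferon receptor, fell by 0.73 (standard error 0.20, adjusted p = 0.026).

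In BECs, 1 of 34 members fell (2.94%, against 1.49% of all genes) and none rose (3.60% of all genes). *Igtp*, an immunity-related GTPase, was at 12.80, 12.73 and 12.93 in the naive replicates and at 11.62, 11.63 and 12.44 in the tumor replicates. All tumor values lay below the naive values, with replicate 3 closest to them. The change was -0.92 (standard error 0.25, limma adjusted p = 0.035). The next members by p were *Ifi35* (log2 change -0.50, adjusted p = 0.086), *Cmpk2* (-0.55, adjusted p = 0.13) and *Irf1* (-0.62, adjusted p = 0.21), which did not pass.

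Log2 changes were below 0 for 28 of 34 members in BECs, and 12 members lay below all naive values (35.3%, against 13.1% of all genes). These included *Rsad2*, *Cmpk2*, *Oasl1*, *Irf7*, *Irf1*, *Gbp2*, *Trim25*, *Parp14*, *Ifi35*, *Adar* and *Zbp1* besides *Igtp*. The separation is that of the brightest probe. In BECs the *Adar* probe used changed by -0.32 and its other probes by -0.24 to 0.04. The *Oasl1* probe used changed by -0.25 and its other probes by -0.06 and 0.03. Other probes of *Irf1*, *Gbp2*, *Trim25*, *Parp14* and *Zbp1* also changed below 0. *Igtp* lost its call when BEC naive replicate 1, 2 or 3 or BEC tumor replicate 1 or 2 was left out (0 members called in each case). Without BEC tumor replicate 3, 3 members were called, and without DN naive replicate 2, 2 were. Without adjustment, the methods' t-test called 6 members lower, and none passed it after Benjamini-Hochberg adjustment.

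Markers of other cells moved in the same BEC arrays. The median log2 change was 1.38 over 10 leukocyte markers and 1.24 over 11 FRC markers, with no marker of either list called. Of 9 B cell markers 1 was called higher, *Vpreb3* with a log2 change of 4.59 (median of the list 1.05), as were 1 of 10 pericyte and smooth muscle markers and 2 of 9 housekeeping genes. The log2 of summed unlogged signal, less background, of the leukocyte markers was 12.84 to 13.08 in naive and 12.83 to 15.63 in tumor replicates. For the FRC markers it was 12.08 to 13.41 and 12.33 to 14.57. BEC tumor replicate 2 had the highest median leukocyte marker level of the BEC arrays (11.78) and the lowest member median relative to the naive mean (-0.47). The part of these markers in the lower values was not tested. In a bulk sample, fewer cells of a type and less RNA per cell cannot be told apart.

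Related interferon genes fell in BECs as well. *Socs1*, a feedback inhibitor of interferon signalling, fell by 0.95 (standard error 0.25, adjusted p = 0.032), 1 of 8 negative regulators to fall. Among 37 further interferon-stimulated genes 3 fell. *Tgtp1*, a GTPase, fell by 1.35 (limma adjusted p = 0.028), *Gbp10*, a guanylate-binding protein, by 1.23 (adjusted p = 0.043) and *Slfn5* by 0.80 (adjusted p = 0.0070). *Slfn5* passed the filter through naive BECs alone (mean 6.17). Only 1 of its 3 tumor BEC replicates was above background, so the size of its fall is not known. *Plac8* rose by 3.17 (adjusted p = 0.0022) and *Ptpn6*, a phosphatase of hematopoietic cells counted here with the negative regulators, rose by 2.82 (adjusted p = 0.024).

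In LECs no member was called, against 0.785% of all genes higher and 0.137% lower, and 1 member had an unadjusted p under 0.05. *Oasl2*, an oligoadenylate synthetase-like protein, was at 10.72, 11.05 and 10.71 in naive and 11.22, 11.68 and 10.97 in tumor LECs. Its groups overlapped, with a change of 0.46 (standard error 0.21, adjusted p = 0.54). *Dhx58* was at 10.72, 10.68 and 10.77 in naive and 11.16, 10.99 and 11.15 in tumor LECs, and the groups were separate, with a change of 0.37 (95% interval -0.00 to 0.75, standard error 0.18, adjusted p = 0.58). *Irf1* was at 13.98, 14.76 and 14.52 in naive and 14.04, 14.25 and 13.52 in tumor LECs, which overlapped (change -0.48, standard error 0.27, adjusted p = 0.69). *Gbp2*, a guanylate-binding protein, was at 13.16, 13.97 and 13.21 in naive and 12.87, 12.96 and 13.03 in tumor LECs (change -0.49, standard error 0.29, adjusted p = 0.72), all tumor values lying below. By the methods' t-test without adjustment 2 members were higher. No pathway gene of the other lists was called in LECs.

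In DN cells 7 of 34 members rose (20.6%, against 4.78% of all genes) and none fell (2.61%). By role, these were 4 of 9 antiviral effectors, *Cmpk2*, *Samd9l*, *Ifit3* and *Oasl1*, together with the sensor *Dhx58*, the modifier *Isg15* and *Ifi35*, a regulator of innate signalling. None of the 4 transcription factors, 3 membrane restriction factors or 5 GTPases was called.

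*Cmpk2*, a mitochondrial nucleotide kinase, was at 7.88, 8.39 and 7.81 in naive and 9.23, 9.20 and 8.98 in tumor DN cells. The groups were separate, with a change of 1.11 (standard error 0.20, limma adjusted p = 0.0022). *Dhx58* was at 8.75, 8.36 and 8.70 in naive and 9.64, 9.82 and 9.04 in tumor, a change of 0.90 (standard error 0.18, adjusted p = 0.0046). *Samd9l*, which restricts translation of viral RNA, was at 10.82, 11.46 and 10.67 in naive and 12.27, 11.82 and 11.60 in tumor, a change of 0.91 (standard error 0.20, adjusted p = 0.0077). Naive and tumor values did not overlap for these genes, and tumor replicate 3 was the lowest tumor value of each.

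*Ifit3* was at 10.54, 10.98 and 10.63 in naive and 11.64, 11.54 and 11.38 in tumor DN cells, a change of 0.80 (standard error 0.18, adjusted p = 0.011). *Isg15* was at 10.18, 10.85 and 10.24 in naive and 11.55, 11.35 and 11.03 in tumor, a change of 0.89 (standard error 0.25, adjusted p = 0.039). *Ifi35* was at 10.13, 9.87 and 9.63 in naive and 10.48, 10.29 and 10.49 in tumor, a change of 0.54 (standard error 0.16, adjusted p = 0.049). These groups did not overlap either, but *Ifi35* lost its DN call in 20 of 24 cases in which 1 replicate was left out. *Oasl1*, a repressor of *Irf7* translation, had the largest change of the members in DN cells, 1.68 (standard error 0.41, adjusted p = 0.018). Its naive values were 6.01, 7.25 and 6.44 and its tumor values were 8.91, 8.69 and 7.15, so that tumor replicate 3 lay within the naive range.

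**Figure D3:**
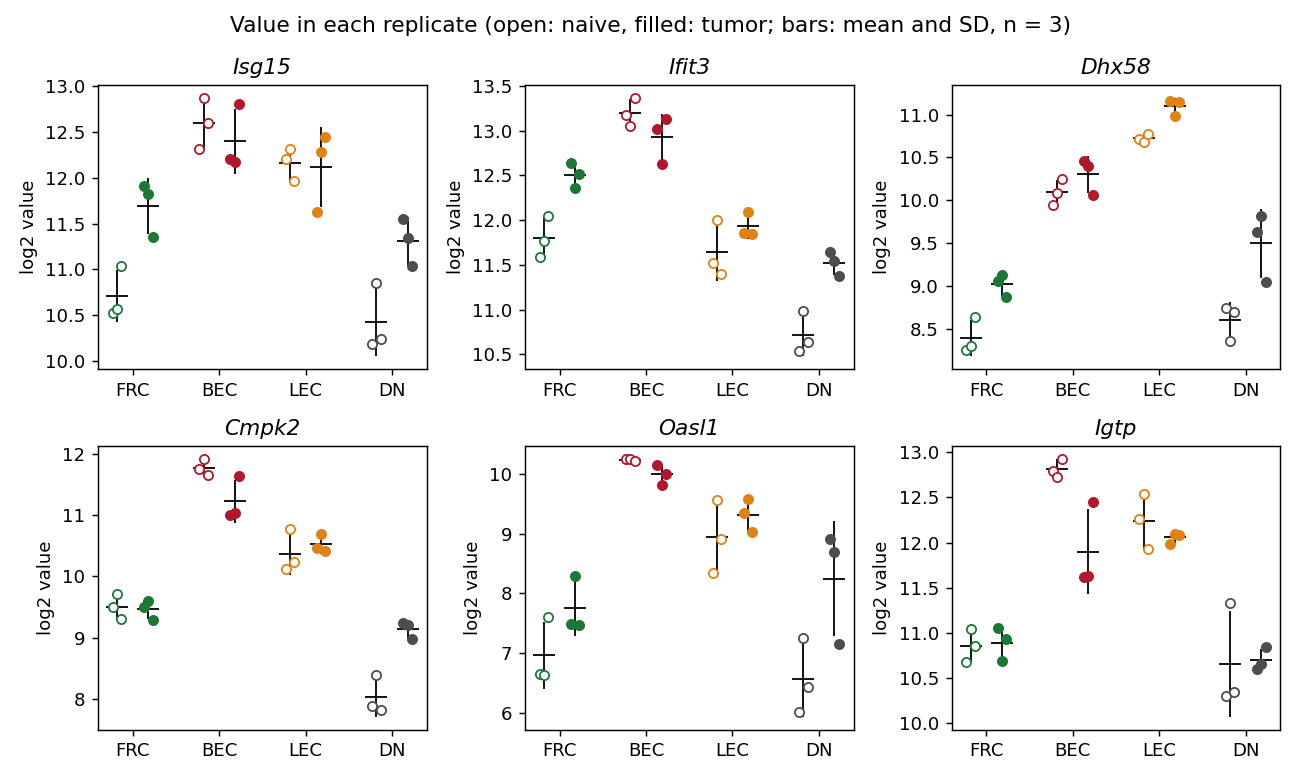
Log2 value (y axis) of 6 interferon response genes in every replicate of FRC, BEC, LEC and DN (x axis), naive as open and tumor as filled points, with the mean and SD of 3 replicates in black. *Isg15*, *Ifit3* and *Dhx58* tumor points lie above all naive points in FRC and DN, *Cmpk2* only in DN, and *Igtp* tumor points lie below all naive points in BEC.

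*Rsad2*, singled out above, was at 9.61, 10.30 and 10.04 in naive and 10.95, 10.94 and 10.70 in tumor DN cells. Its groups were separate, but it missed the threshold (change 0.88, limma adjusted p = 0.079). *Rsad2* and *Cmpk2* are direct neighbours on chromosome 12.

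Markers of other cells also rose in DN cells. Of 10 leukocyte markers 6 rose with tumor (median log2 change 2.63), as did 4 of 9 B cell markers (1.29) and 4 of 10 blood endothelial markers (1.91). Among 9 housekeeping genes the median log2 change was 0.37, with all 9 above 0 and none called. The log2 of summed unlogged signal, less background, of the leukocyte markers was 12.60 to 12.98 in naive and 13.38 to 16.21 in tumor replicates. For the B cell markers it was 9.20 to 10.08 and 11.08 to 14.57, and for the blood endothelial markers 13.30 to 14.21 and 14.78 to 15.00. The B cell markers *Cd79b* and *Vpreb3* rose by 4.47 and 6.24, and *Pecam1* rose by 3.26. The part of these cells, or of the housekeeping shift, in the member changes was not tested.

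DN tumor replicate 3 had the lowest median leukocyte marker level of the tumor replicates (9.39, against 12.21 and 11.57) and of the B cell markers (5.96, against 10.22 and 9.73). With it as the only DN tumor replicate no member passed in DN cells, the median change of the members was 0.33 in place of 0.52, and *Cmpk2* changed by 0.95 (limma adjusted p = 0.13). This setting was chosen after the data were seen, and the lone replicate is taken to vary like the other groups. DN naive replicate 2 stood apart from the other naive DN arrays, with a member median 0.38 above the naive mean against -0.22 and -0.15. Its median lymphatic endothelial marker level was 9.68 against 5.73 and 5.83, and in DN tumor replicates it was 7.61, 8.53 and 9.66. Without it 16 members were called higher in DN cells, whereas 4 were called without DN naive replicate 3 or DN tumor replicate 2 and 2 without DN tumor replicate 1. Shares of all genes called in these fits were not worked out, so the shifts are not shown to be particular to the members. In a fit of the 6 DN replicates alone, and by the methods' t-test after Benjamini-Hochberg adjustment, none passed.

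**Figure D4:**
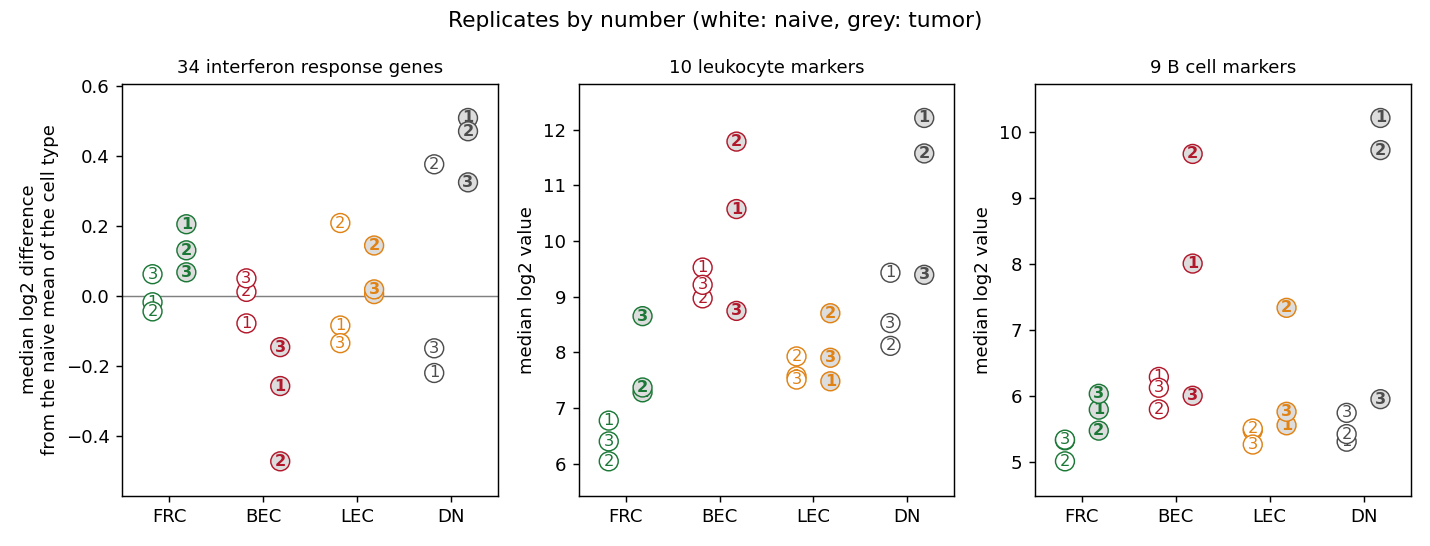
Each number is 1 replicate of a cell type (x axis), white for naive and grey for tumor. The left panel shows the median log2 difference of the 34 interferon response genes from their naive means, and the other panels show the median log2 value of the 10 leukocyte and 9 B cell markers tested. DN tumor replicates 1 and 2 are high in all panels, and DN naive replicate 2 (0.38) is the highest naive replicate of DN in the left panel.

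Further interferon-stimulated genes rose in DN cells in 7 of 37 cases. The strongest were *Oas2*, an oligoadenylate synthetase, with 5.71, 6.97 and 6.12 in naive and 8.75, 8.71 and 7.96 in tumor replicates (change 2.21, adjusted p = 0.0003), *Gvin1*, a very large inducible GTPase, with a change of 2.96 (adjusted p = 0.0005), *Oas1g* (1.477, adjusted p = 0.0005), *Lgals9*, a galectin (2.01, adjusted p = 0.0009), *Trim30a* (1.78, adjusted p = 0.011) and *Slfn2* (0.98, adjusted p = 0.026). *Gvin1* was at 8.30 in DN naive replicate 2 and at 5.84 and 5.82 in the other naive replicates. Without DN naive replicate 2, 12 of these 37 genes were called higher, and with DN tumor replicate 3 as the only DN tumor replicate none was. In that setting *Oas2* changed by 1.69 (limma adjusted p = 0.063) and *Gvin1* by 2.18 (adjusted p = 0.086).

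Of 19 interferon ligands listed, 6 passed the filter. Levels are given here for *Ifng* and *Ifnb1*, which were at or near background. *Ifng*, made by T and NK cells, was below background in all naive DN replicates and at 6.78, 5.92 and 5.07 in tumor DN replicates, above background in 2 of them. The tumor DN mean was 1.24 times the background level, though 1 of its replicates lay below that level. The tumor minus naive change in DN cells was 0.99 (limma adjusted p = 0.037). *Ifng* passed the filter through tumor DN cells alone, so it was tested only because of the group where it was called high. In the other cell types no replicate was above background for *Ifng*. In tumor DN replicates 1 to 3 the median of 5 T cell markers was 9.42, 9.22 and 5.52 (naive 5.66 to 6.75). That of 4 NK cell markers was 7.55, 7.28 and 5.89 (naive 5.59 to 5.80). From each list 1 marker was called higher in DN cells. The part of such cells in the *Ifng* signal was not tested. *Ifnb1* exceeded background in 2 of 3 naive LEC replicates (5.14, 6.64 and 5.79), in 2 of 3 tumor LEC replicates and in at most 1 replicate of any other group. *Ifngr1*, a subunit of the interferon gamma receptor, was far above background in all groups, with naive means of 12.11 in BECs, 11.74 in FRCs, 11.37 in LECs and 9.81 in DN cells, and it was not called with tumor in any of them. *Ifnar1* did not pass the filter.

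Averaged over the 4 cell types, 6 members rose (17.6%, against 12.7% of all genes) and 3 fell (8.82%, against 10.9%). *Dhx58* rose by 0.53 (standard error 0.09, limma adjusted p = 0.0004), and *Ifit3*, *Oasl2*, *Samd9l*, *Isg15* and *Oasl1* rose by 0.33 to 0.65. *Irf1* fell by 0.56 (standard error 0.14, adjusted p = 0.0061), *Gbp2* fell by 0.52 (adjusted p = 0.016) and *Trim25*, a ubiquitin ligase of RNA sensing, fell by 0.33 (adjusted p = 0.0496). With 1 replicate left out at a time, *Trim25* lost its call in 17 of 24 cases and *Oasl1* in 7. *Irf1*, *Gbp2* and *Trim25* changed below 0 in all 4 cell types, and *Dhx58*, *Oasl2* and *Ly6e* changed above 0 in all 4. In FRCs, *Irf1* went from 14.71, 14.50 and 14.44 to 13.85, 13.98 and 13.39 without overlap, but it missed the threshold there (change -0.81, adjusted p = 0.065).

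Whether the response to tumor differed between cell types was tested directly. The F test over the 4 changes passed for 2 of 34 members (5.88%, against 1.31% of all genes), *Cmpk2* (adjusted p = 0.019) and *Ifi35* (adjusted p = 0.038), which lost its call in 16 of 24 cases with 1 replicate left out. *Cmpk2* went from 11.75, 11.92 and 11.65 to 10.999, 11.04 and 11.64 in BECs and rose in DN cells, whereas its FRC values of 9.50, 9.71 and 9.31 and 9.50, 9.60 and 9.29 and its LEC values of 10.11, 10.77 and 10.23 and 10.47, 10.70 and 10.41 overlapped. The BEC change was below the DN change by 1.66 on the log2 scale (standard error 0.29, 95% interval -2.27 to -1.06, limma adjusted p = 0.015), which made it the 1 member called in that pair (2.94%, against 0.305% of all genes). *Ifi35* went from 9.58, 9.68 and 9.65 to 10.18, 10.13 and 9.92 in FRCs and from 11.32, 11.42 and 11.28 to 10.66, 10.71 and 11.16 in BECs. In LECs its values of 10.49, 10.71 and 10.61 and 10.66, 10.12 and 10.29 overlapped.

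For all 34 members the log2 change was lower in BECs than in DN cells, with a median difference of -0.69, and 18 had an unadjusted p under 0.05, against 9.42% of all genes. No member passed in the other 5 pairs of cell types. Members with an unadjusted limma p under 0.05 numbered 6 for FRC against BEC (11.2% of all genes) and 3 for FRC against LEC (11.1%). They numbered 3 for FRC against DN (13.4%), 4 for BEC against LEC (5.41%) and 8 for LEC against DN (10.3%). The number passing the F test was the least settled count. It was 10 without DN naive replicate 2 and 4 without DN tumor replicate 3, and 0 without DN naive replicate 3, DN tumor replicate 1 or DN tumor replicate 2. Leaving out any of 13 other replicates left 1.

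Deviations of replicates from their group means were compared across genes. After subtraction of group means, single members correlated with the member median with a median r of 0.70 over 24 replicates (from -0.51 to 0.90), and of 0.58 (from -0.23 to 0.90) over the 21 replicates without naive DN cells. Each member is part of that median, so its own r and rank are partly built in. The 10 genes outside the member and pathway lists with the most similar pattern were *Cdkn1a* (r = 0.90), which encodes the cell cycle inhibitor p21, *Csrnp1* (0.87), *Arid5a* (0.87), *Itpkc* (0.85), *Nbdy* (0.84), *Slc2a3* (0.84), a glucose transporter, *Abcb1b* (0.84), *Wsb1* (0.84), *Zc3h12a* (0.83), an RNase of inflammatory transcripts, and *Itprip* (0.83). Of the 100 genes ranked highest 9 were members. These points share arrays, and DN naive replicate 2 deviated most (0.38). Over the 21 replicates without naive DN cells r was 0.80 for *Cdkn1a* and 0.65 to 0.81 for the rest.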

How the data were processed

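Whole-genome expression was measured on Illumina mouse bead arrays in 24 replicates, each on 2 strips. The authors deposited log2 values for 45281 probes and 48 strips, whose normalization is not given in the sources used here (strip medians 5.38 to 5.64). They also deposited the intensity of each bead, from 863780 to 1044181 beads a strip, used as an alternative. The log2 values were quantile normalized and strips averaged. Probes with 1 gene symbol (34885) were kept where a group mean exceeded the background level of 5.62, the mode of probe means (5.04) plus 3 robust SDs (0.19), and the brightest probe stood for each of 13119 genes. Symbols were updated with the RefSeq GRCm38.p6 table. Differences were tested with limma 3.58.1 in R 4.3.3 in 1 model of 8 group means (16 residual degrees of freedom), with Benjamini-Hochberg adjustment over all genes at 0.05. The number of arrays limits the precision. The members and lists were chosen with earlier results of these data known. Values of every replicate were given for members passing in a cell type, otherwise for the 4 with the smallest p, for members passing the F test and for the 3 brightest and 3 dimmest. Pathway genes were named where they passed, at most 6 a cell type, and *Ifnar1*, *Ifngr1*, *Ifnb1* and *Ifng* in any case. A gene of the pathway that the rule also names is not reported here. Same-numbered naive and tumor replicates correlated in their deviations by 0.03 to 0.25 in FRC, -0.22 to 0.04 in BEC, 0.15 to 0.23 in LEC and -0.19 to -0.02 in DN. The main fit paired no samples in any cell type, LEC included. A block on the replicate number in all 4 cell types was an alternative. The fits were tested on simulated data.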

Additional observations from a re-analysis of the deposited data

Results flagged for a closer look

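For 3 members, every tumor value lay above the naive values in at least 1 other cell type and below them in BECs. *Cmpk2* did so in DN cells and BECs, with log2 changes that differed by 1.66, and the difference of -1.66 for BEC minus DN passed (limma adjusted p = 0.0145), as did the F test over the 4 cell types (adjusted p = 0.019). *Ifi35* did so in FRCs and in DN cells against BECs, with differences of 0.94 (adjusted p = 0.0597) and 1.04 (adjusted p = 0.0501), neither of which passed, whereas its F test did (adjusted p = 0.0379). *Rsad2* did so in DN cells against BECs, with a difference of 1.51 that did not pass (limma adjusted p = 0.16). The share of all genes with such opposite groups was not worked out. Of all genes, 13.1% lay below all naive values in BECs, 19.5% above them in FRCs and 8% above them in DN cells.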

How the results depend on the processing

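No called change of a named member changed sign under any alternative. The LEC median change of 0.05 did, at -0.03 with the mean of kept probes, -0.05 with the second brightest probe and -0.04 without LEC naive replicate 3. Counts are of members, against 3 higher and 0 lower in FRC, 1 lower in BEC, 7 higher in DN, 6 higher and 3 lower for the mean, and 2 for the F test of changes. Calls over all genes are given for the replicate block alone. Shifts in the other counts are therefore not shown to be particular to the members. With strips centred on the median, BEC lower was 0. With cyclic loess, FRC lower was 1, the F test 1 and the FRC median change 0.051. The mean of kept probes gave FRC lower 1, and the second brightest probe DN higher 4 and mean lower 1. The first strip alone gave FRC lower 1, mean higher 3 and F test 0, and the second strip FRC higher 1, BEC lower 0 and F test 0. Strips as a random block (duplicateCorrelation) gave FRC lower 1 and F test 8. Each cell type fitted alone gave FRC higher 5 and lower 1, BEC lower 0 and DN higher 0. Array weights gave FRC higher 11 and lower 2, BEC higher 1 and lower 7, DN higher 17, mean higher 13, F test 17 and FRC median change 0.21. The unpaired t-test gave, unadjusted, FRC higher 8 and lower 1, BEC lower 6 and LEC higher 2. After Benjamini-Hochberg adjustment it gave FRC higher 1, BEC lower 0 and DN higher 0. Bead intensities without background correction gave FRC lower 1 and BEC lower 2, and with normexp FRC lower 1. DN tumor replicate 3 as the only DN tumor replicate, chosen after seeing the data, gave DN higher 0, mean higher 2 and F test 0. The cause of these shifts was not tested.

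With the replicate block, FRC higher was 1, BEC lower 0, DN higher 6, mean higher 5 and lower 2, and the F test 0. Over all genes, calls went from 1380 to 1003 in FRC, from 667 to 509 in BEC, from 121 to 84 in LEC and from 970 to 708 in DN.

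Leaving out 1 replicate at a time gave FRC higher 0 to 5 and lower 0 to 1, BEC lower 0 to 3, DN higher 2 to 16, mean higher 5 to 9 and lower 2 to 4, the F test of changes 0 to 10 and of naive levels 32 to 34. Median changes ran from 0.060 to 0.17 in FRC, -0.38 to -0.16 in BEC, -0.04 to 0.15 in LEC and 0.28 to 0.69 in DN. *Cmpk2* and *Dhx58* kept their DN calls in all 24 cases, whereas the DN call of *Ifi35* was lost in 20, the mean call of *Trim25* in 17 and of *Oasl1* in 7, and the F test of *Ifi35* in 16 and of *Cmpk2* in 3, and the BEC minus DN difference of *Cmpk2* was lost without BEC tumor replicate 2 (limma adjusted p = 0.0513). *Ifih1* and *Mx1* lay near background, where a lower level cannot be measured.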
